A study of Mus musculus with 2 samples.

Results

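The intronic miRNAs Mir708, Mir28, Mir151 and Mir582 were described in 2 small RNA-seq (smRNA-seq) libraries. They are 4 of 1638 miRNA features, found by name, and all 4 are listed. The set was chosen by values measured in these same libraries. Which values these were is not stated, and Mir708 and Mir582 had some of the lowest ratios of prospermatogonia to mESC, so that the ratios below are descriptions and none was tested. One library came from wild-type mESCs of the E14 line. For naive E14 mESCs, the study describes feeder-free culture in N2B27 with LIF and inhibitors of MEK and GSK3. Its list of datasets names the smRNA sample mESC, without the word naive. The other library came from wild-type male germ cells of C57Bl/6J embryos at E15.5, from matings of females that carry an Oct-4/GFP transgene. The sample labels call these cells primordial germ cells, and the study calls them prospermatogonia, the name used here. How many embryos were pooled is not given in the sources used here. With 1 library per condition, no difference between them has a replicate check.

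The authors deposited a log2 value for each feature and library, from which whole reads could be recovered. The values were read as log2 RPM (reads scaled to a library of 1000000), a unit that the source does not state for smRNA. On this reading the totals were 449643 reads for mESCs and 2869578 for prospermatogonia, and a single read was worth 2.22 and 0.348 RPM. The features held 110455 reads in mESCs and 155237 in prospermatogonia, and shares of these miRNA reads do not rest on the totals. Intervals are 95% Wilson intervals of the reads and cover counting error only, since PCR copies are not independent molecules. All 12 miRNAs of the mESC marker list (the Mir290 and Mir302 clusters) had more than 3 reads in mESCs, where they held 24.7% of the miRNA reads, against 3.25% in prospermatogonia. The 9 X-linked miRNAs listed as markers of male germ cells held 0.0118% and 10.4%. Lists for other cells were also summed. The mesenchymal list, with 6 of its 7 names found, held 3.31% in mESCs and 0.482% in prospermatogonia, the list for blood and endothelium 0.625% and 0.110%, and the list for gonadal soma 0.262% and 0.399%. Mir199a-1, Mir199a-2 and Mir144 were at 0 reads in both libraries and Mir145 in prospermatogonia. Mir21 had 2215 reads in mESCs and 486 in prospermatogonia, Mir142 had 400 and 124, and Mir126 had 255 and 40. Of the list for gonadal soma, Mir202 had 0 reads in mESCs and 57 in prospermatogonia, Mir140 had 280 and 558, and Mir455 had 9 and 4. The part of other cells in the values of the 4 miRNAs was not tested.

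A miRNA is cut from a hairpin in a longer transcript, first by Drosha and then by Dicer, and guides an Argonaute protein to mRNAs that pair with its seed, bases 2 to 8. An intronic miRNA can be made from the transcript of its host gene or from a promoter of its own, so that its level need not follow the host mRNA. Mir28, Mir151 and Mir708 belong to 1 family of hairpins, known for its origin in LINE-2 transposable elements, and each lies in the intron of a different gene. Mir582 is outside this family and is described beside it as a further intronic miRNA.

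Mature sequences from RefSeq (GRCm38.p6) were found for 3 of the 4 miRNAs, Mir708, Mir28 (there Mir28a) and Mir582, but not for Mir151. They are shown because the seed is what places Mir708 and Mir28 together and Mir582 apart. Capitals mark the seed.
mmu-miR-708-5p: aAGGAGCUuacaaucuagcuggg
mmu-miR-28a-5p: aAGGAGCUcacagucuauugag
mmu-miR-708-3p: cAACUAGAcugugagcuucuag
mmu-miR-28a-3p: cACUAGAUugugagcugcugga
mmu-miR-582-5p: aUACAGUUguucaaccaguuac
mmu-miR-582-3p: uAACCUGUugaacaacugaac

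The seed AGGAGCU was shared by the 5p arms of Mir708 and Mir28 and by no other of 1738 mature entries. Read from their 5′ ends, these arms had the same base at 16 of 22 positions. Beyond the seed they differed by C9U, G13A, U18G, U19C, G20U and A21G, with the base of miR-28a-5p first and positions counted from its 5′ end. The 3p arms had the same base at 17 of 21 positions once miR-708-3p was read from its base 2, so that their seeds differ in register. The seed UACAGUU of miR-582-5p occurred in 1 entry. Mir7080 and Mir6929 hold AGGAGC within bases 2 to 10 but have another seed, and were not analysed here. The deposited values are per hairpin, and the arms cannot be told apart in them.

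The hosts are genes of cell contact, adhesion and signalling. Positions are those of the table and equal miRNA genes of GENCODE vM21 on GRCm38. Mir708 (ENSMUSG00000076143.1) lies on chromosome 7 from 96249424 to 96249532, plus strand, in intron 1 of 32 of Tenm4-201. Tenm4 encodes a teneurin, a transmembrane protein of cell contacts, and Mir708 is known to be induced together with it under endoplasmic reticulum stress. Mir28 (ENSMUSG00000065494.1) lies on chromosome 16 from 24827855 to 24827940, plus strand, in intron 8 of 12 of Lpp-201. Lpp encodes a LIM domain protein of focal adhesions. Mir151 (ENSMUSG00000065612.1) lies on chromosome 15 from 73254815 to 73254882, minus strand, in intron 22 of 31 of Ptk2-201. Ptk2 encodes focal adhesion kinase. Mir582 (ENSMUSG00000076946.2) lies on chromosome 13 from 109324744 to 109324824, plus strand, in intron 1 of 14 of Pde4d-208. Pde4d encodes a phosphodiesterase that breaks down cAMP.

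The introns differ in size. That of Pde4d spans 623306 bases, that of Tenm4 183862, that of Lpp 82814 and that of Ptk2 14556. Each miRNA lies on the strand of its host and overlaps no annotated exon of it. In the transcripts named, the closest exon, 2151 bases away, is that of Ptk2 next to Mir151. No other feature of the table overlaps any of the 4, and the nearest listed feature is 578985 bases or more away in each case. Each is thus read as a single miRNA and not as part of a cluster.

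Mir151 was the most abundant of the 4 in both libraries. It had 1099 reads in mESCs and 1529 in prospermatogonia, at place 18 and place 20 in the order of the 1638 features. Its RPM was 2444 (2304 to 2593) in mESCs and 533 (507 to 560) in prospermatogonia, which is 4.59-fold lower (4.25-fold to 4.96-fold). Its share of the miRNA reads was 0.995% (0.938% to 1.06%) in mESCs and 0.985% (0.937% to 1.04%) in prospermatogonia. The intervals of the shares overlap, and the share in mESCs was 1.01 times that in prospermatogonia (0.935 to 1.09). The RPM of Mir151 thus differed between the libraries by about as much as that of all miRNA reads together, of which mESCs held 24.6% of the library total and prospermatogonia 5.41%.

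Mir28 was lower in prospermatogonia on both scales. It had 75 reads in mESCs and 28 in prospermatogonia, at place 87 and place 128. Its RPM was 167 (133 to 209) and 9.76 (6.75 to 14.1), which is 17.1-fold lower (11.1-fold to 26.3-fold). Its share of the miRNA reads was 0.0679% (0.0542% to 0.0851%) in mESCs and 0.0180% (0.0125% to 0.0261%) in prospermatogonia, 3.76-fold lower (2.45-fold to 5.79-fold). A share equal to that in mESCs would have given 105 reads in prospermatogonia. A run of 20 of the 22 bases of miR-28a-5p also stands in the hairpin of Mir28c on chromosome 15 from 53614205 to 53614279, so that reads of this arm that are shorter or mapped with mismatches could match both loci. Mir28c was not analysed here. The related Mir28b was listed with 0 reads in both libraries.

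Mir708 shares its 5p seed with Mir28 and differed more between the libraries. It had 108 reads in mESCs, more than Mir28, and 3 in prospermatogonia, fewer than Mir28. Its RPM was 240.2 (199 to 290.0) and 1.05 (0.356 to 3.07), which is 230-fold lower (77.1-fold to 685-fold). Its share of the miRNA reads was 0.0978% (0.0810% to 0.118%) and 0.00193% (0.000657% to 0.00568%), 50.6-fold lower (17.0-fold to 151-fold). An equal RPM would have given 689 reads in prospermatogonia, and an equal share 152. A run of 22 of the 23 bases of miR-708-5p also stands in the hairpin of Gm23134 on chromosome 2 from 157562361 to 157562447. The feature listed there, AL672259.1, had 0 reads in mESCs and 1 in prospermatogonia, and how the authors counted reads with several matches is not given in the sources used here.

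Mir582 had 51 reads in mESCs, at place 98, and 0 in prospermatogonia. Its RPM in mESCs was 113 (86.3 to 149), 0.0462% of the miRNA reads (0.0351% to 0.0607%). A count of 0 allows up to 3 reads, which is 1.05 RPM or 0.00193% of the miRNA reads in prospermatogonia. Against this level of 3 reads, Mir582 was at least 108-fold lower in prospermatogonia by RPM, and at least 23.9-fold lower by share. These folds take the mESC value as exact, and the end of the Wilson interval nearest to equal levels is 84.7-fold by RPM and 18.7-fold by share. An equal RPM would have given 325 reads there, and an equal share 71.7. Its arms share no more than 10 bases in a row with any other of the miRNA hairpins in GENCODE, unlike the 5p arms of Mir708 and Mir28.

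**Figure D1:**
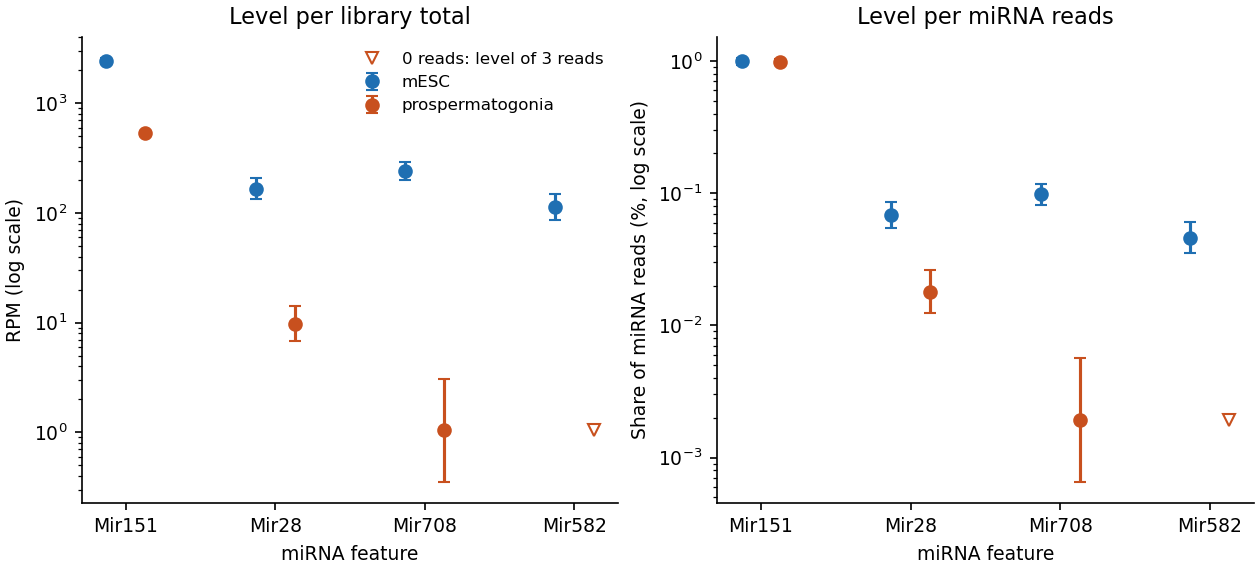
RPM (left) and share of miRNA reads in % (right), both on log axes, of the 4 miRNA features in the mESC (blue) and prospermatogonia (orange) libraries, 1 library each. Points are values, bars are 95% Wilson intervals, and the open triangle marks the level of 3 reads where Mir582 had 0 reads. By share, Mir151 is at 0.995% and 0.985%, whereas Mir28, Mir708 and Mir582 are lower in prospermatogonia on both axes.

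Within a library, the order of the 4 was Mir151, Mir708, Mir28, Mir582 in mESCs. In prospermatogonia it was Mir151, Mir28, Mir708, Mir582, the last with no read. The order was the same per base of the listed hairpin, with 16.2, 0.991, 0.872 and 0.630 reads per base in mESCs. The same quantity was 22.5 for Mir151, 0.326 for Mir28, 0.0275 for Mir708 and 0 for Mir582 in prospermatogonia. In mESCs, Mir708 held 59.0% (51.8% to 65.9%) of the 183 reads of Mir708 and Mir28, and Mir28 held 59.5% (50.8% to 67.7%) of the 126 reads of Mir28 and Mir582. Each interval lies above equal parts, narrowly so for Mir28, and covers counting error only. In prospermatogonia the intervals of Mir151, Mir28 and Mir708 do not overlap one another, and Mir708 with 3 reads is at the level that the 0 reads of Mir582 allow.

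The 3 relatives Mir708, Mir28 and Mir151 were then summed within each library, since shares of this sum need no scaling between the libraries. They summed to 1282 reads in mESCs and 1560 in prospermatogonia, 1.16% and 1.00% of the miRNA reads. Mir151 made up 85.7% (83.7% to 87.5%) of these reads in mESCs and 98.0% (97.2% to 98.6%) in prospermatogonia. Mir708 made up 8.42% (7.03% to 10.1%) and 0.192% (0.0654% to 0.564%). Mir28 made up 5.85% (4.69% to 7.27%) and 1.79% (1.24% to 2.58%). In these 2 libraries, the reads of the family lay more on Mir708 and Mir28 in mESCs than in prospermatogonia, which is a description of values from which the set was chosen. Expressed per 100 reads of Mir151, Mir708 was at 9.83 reads (8.07 to 12.0) in mESCs and at 0.196 (0.0667 to 0.577) in prospermatogonia. On this scale Mir28 was at 6.82 reads (5.40 to 8.62) and 1.83 (1.26 to 2.66). Mir582 was at 4.64 reads (3.51 to 6.14) in mESCs, and its 0 reads in prospermatogonia allow up to 0.196.

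The 4 were set against all features by the log2 ratio, log2((RPM + 1) / (RPM + 1)) of prospermatogonia to mESC, over the 203 features that reached 10 RPM in either library. All 4 passed this filter, through their mESC level or, for Mir151, both levels. The ratio was -6.88 for Mir708, -6.84 for Mir582, -3.96 for Mir28 and -2.20 for Mir151, and the pseudocount of 1 RPM understates it for Mir708. With 0 reads in prospermatogonia, the ratio of Mir582 is set by the pseudocount, and its place among the features is not given. All 4 were at least 2-fold lower in prospermatogonia, and so were 80.8% of the 203 features, so that this count says little about the 4. Their median was -5.40, or -4.88 with Mir582 set to 3 reads, beside -2.52 for the 203 features. Of the 203 features, 2 had a lower ratio than Mir708, 44 a lower one than Mir28 and 120 a lower one than Mir151. Mir151 was thus above the median feature and the other 3 were below it. The count for Mir708 holds for a pseudocount of 1 RPM only, as features with 0 reads in prospermatogonia move with the pseudocount. With 0.1 RPM, Mir708 was at -7.71 and Mir582 below it at -10.15.

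The ratios were then computed under other scalings. When the libraries were scaled to all miRNA reads, 39.9% of the features were at least 2-fold lower, and the ratios became -5.39 for Mir708, -1.89 for Mir28 and -0.015 for Mir151. When they were scaled to the median ratio of the 111 features that reached 10 RPM in each library, 36.5% were at least 2-fold lower, and the ratios became -5.23, -1.70 and 0.18. Mir582, with no read in prospermatogonia, was at -6.84 under both. Under each of these 2 scalings Mir708, Mir28 and Mir582 were at least 2-fold lower and Mir151 was not, and the ratio of Mir151 turned positive under the median ratio. Mir151 stayed above its relatives, since a scaling moves all features alike before the pseudocount is added.

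**Figure D2:**
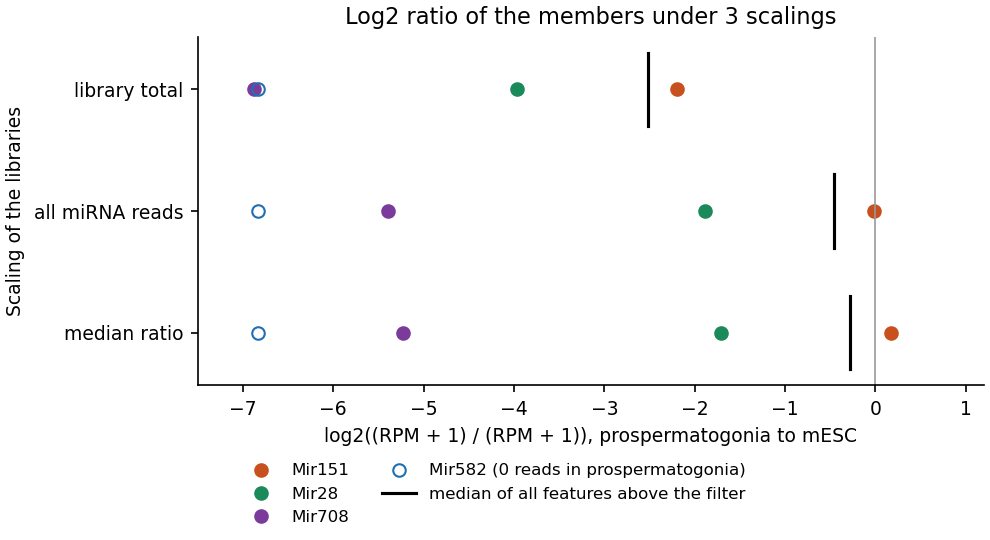
Log2 ratio of prospermatogonia to mESC on the horizontal axis for the 4 miRNAs, with the libraries scaled to their totals, to all miRNA reads or to the median ratio (rows). The vertical tick in each row is the median of the 203 features, at -2.52, -0.46 and -0.28. Mir151 stays to the right of the tick in each row and the other 3 to the left.

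**Figure D3:**
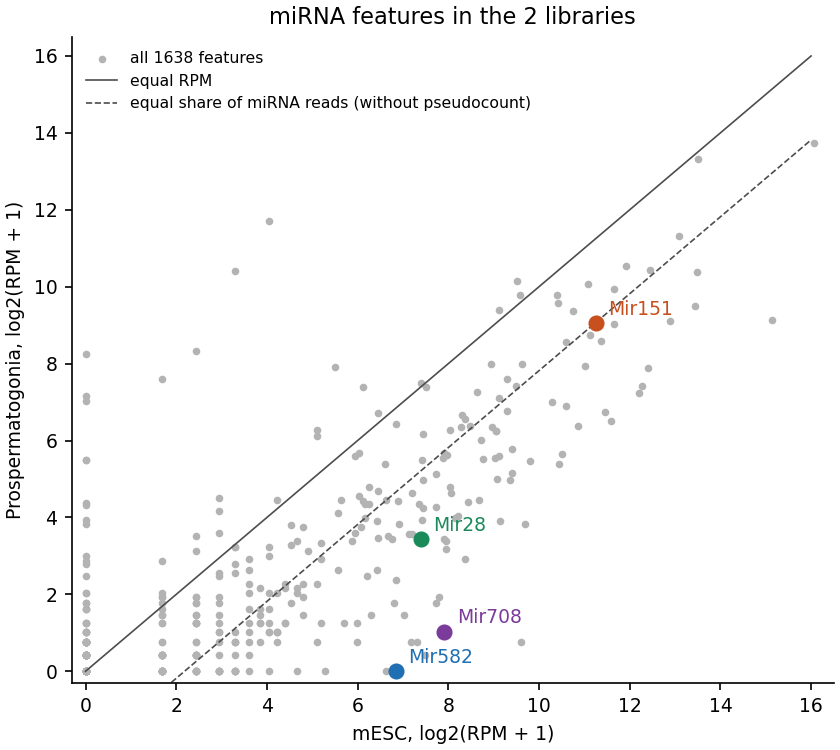
Log2(RPM + 1) in mESCs (horizontal) and prospermatogonia (vertical) of 1638 features in grey, with the 4 miRNAs in colour. The solid line marks equal RPM and the dashed line an equal share of the miRNA reads. Mir151 is on the dashed line, Mir28 below it, and Mir708 and Mir582 at the lower edge.

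Low values in prospermatogonia were looked at among features with a like number of mESC reads, which needs no scaling. From the 51 reads of Mir582 to the 108 of Mir708, 30 features were listed, and their reads in prospermatogonia ranged from 0 to 517 with a median of 39.5. Of these, 6 had 3 reads or fewer, namely Mir302a, Mir302d, Mir34a, Mir200a, Mir708 and Mir582, and Mir582 was the one with none. Among the 203 features, 11.8% had 3 reads or fewer in prospermatogonia. Since the set was chosen by values of these libraries, the place of Mir708 and Mir582 here is a description and no finding. Mir28, with 28 reads, had 18 of the 30 above it. Of 20 features with 550 to 2198 mESC reads, within 2-fold of Mir151, the reads in prospermatogonia ranged from 118 to 4250 with a median of 1092, and 6 were above Mir151.

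**Figure D4:**
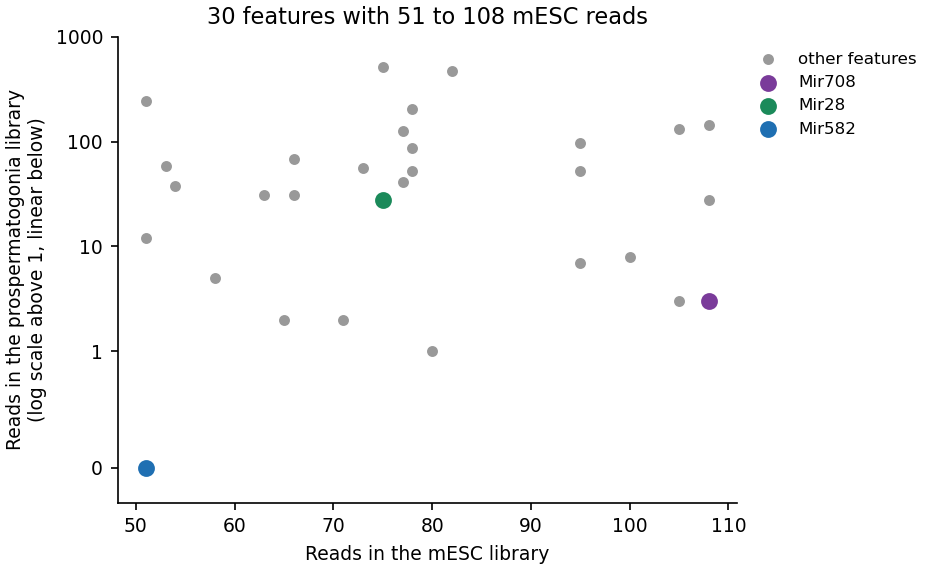
Reads in the prospermatogonia library (vertical, log scale above 1 and linear below) against reads in the mESC library (horizontal) for the 30 features with 51 to 108 mESC reads. Each point is a feature in 1 library per condition. Mir582 is at 0 and Mir708 at 3 reads, whereas Mir28 with 28 reads lies nearer to the median of 39.5.

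The features nearest to each miRNA were found by the Euclidean distance over log2(RPM + 1) in the 2 libraries, 3 for each. Nearest to Mir708 were Mir302d with 105 and 3 reads (distance 0.040), Mir200a with 71 and 2 (0.66) and Mir302a with 80 and 1 (0.74), in mESCs and prospermatogonia. Nearest to Mir582 were Mir302b with 44 and 0 reads (0.21), Mir302a (0.78) and Mir34a with 65 and 2 (0.84). All of these had 3 reads or fewer in prospermatogonia, so that the distances rest on few reads and on the 1 RPM added. The Mir302 cluster is known from pluripotent cells and Mir200a from epithelial cells. Nearest to Mir28 were Mir301b with 66 and 31 reads (0.23), Mir222 with 63 and 31 (0.28) and Mir23a with 77 and 41 (0.51). Nearest to Mir151 were Mir93 with 1011 and 1238 reads (0.33), Mir27b with 1454 and 1486 (0.41) and Mir127 with 1191 and 1096 (0.49). The relatives of the Mir28 family were thus none of each other's 3 nearest features.

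A position in an intron was also looked at by itself. Of the 1638 features, 489 lie on the sense strand within an intron of a protein-coding gene and overlap none of its exons. Without the 4 miRNAs, 56 of them passed the filter. Of these, 46 were at least 2-fold lower in prospermatogonia (82.1%, beside 80.8% of all features) and 1 was at least 2-fold higher, beside 20 of all 203 features. Their median log2 ratio was -2.20, beside -2.52 for all. With the scaling to all miRNA reads, 19 of the 56 were lower and 11 higher, beside 81 and 41 of all 203 features, with a median of -0.22 beside -0.46. In prospermatogonia 7 of the 56 (12.5%) had 3 reads or fewer, beside 11.8% of all features. The lowest ratios among them were -6.55 for Mir200a, -5.88 for Mir429 and -5.87 for Mir200b, all in Ttll10. Mir130b in 2610318N02Rik followed at -5.05. Mir653 in Calcr, with 11 reads in mESCs and 0 in prospermatogonia, was at -4.67. The pseudocount sets this last ratio, so that the place of Mir653 is not given. By this ratio Mir708 was lower than Mir429, Mir200b and Mir130b, and Mir28 lay above them. Mir708, with 108 and 3 reads, and Mir200a, with 71 and 2, are not told apart. The gap between their ratios rests on the pseudocount and on few reads in prospermatogonia. The ratio of Mir151 was -2.20, as was the median of the intronic features.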

How the data were processed

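The authors made smRNA libraries with the TruSeq Small RNA kit, cut the cDNA by size from a gel, trimmed the reads (Trim Galore 0.4.1 per the labels) and mapped them with Bowtie through piPipes. The methods name mm9, whereas the labels name GRCm38, and 1300 of 1638 features matched a miRNA gene of GENCODE vM21 (GRCm38) exactly in position, so that GRCm38 was used. The authors deposited log2 values. How reads were counted is not given in the sources used here. In linear form the values were whole multiples of the value of 1 read (within 0.0140 reads), except that features without reads were entered as 0.9 reads and set to 0 here. The recovery of reads was tested on simulated data coded in the same way. That test checks the arithmetic, and cannot check the unit or the 0.9 reads.

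Ratios used a pseudocount of 1 RPM. A call means a 2-fold difference among features that reached 10 RPM in either library. No test was run, since each condition has 1 library. Named features are the 4 miRNAs, their relatives by seed or shared sequence, and the 3 features nearest to each. Members of the marker lists and the 5 intronic features with the most extreme ratios in each direction are also named. The miRNAs and lists were chosen with earlier results of these data known. Alternatives were other scalings, pseudocounts of 0.1 and 5, other filters and a 4-fold threshold. Python 3.11.15, numpy 2.4.6, pandas 2.3.3 and matplotlib 3.10.9 were used. Host transcripts were not measured in these files.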

Additional observations from a re-analysis of the deposited data

How the results depend on the processing

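No paired analysis was possible because there was 1 library per condition, and for the same reason no replicate could be left out. Scaling to the median ratio and to all miRNA reads shifts every log2 ratio by 2.37 and 2.18 before the pseudocount. In this order Mir708 was at -5.23 and -5.39 (-6.88 with library totals), Mir28 at -1.70 and -1.89 (-3.96), Mir151 at 0.18, a change of sign, and -0.015 (-2.20), the sum of Mir28, Mir151 and Mir708 at -0.018 and -0.21 (-2.39), and the median of other intronic features at -0.042 and -0.22 (-2.20). Without Mir151 the sum was at -5.11, since Mir151 holds most of its reads. With pseudocounts of 0.1 and 5, Mir582 was at -10.15 and -4.57, as the pseudocount sets the ratio of a feature with 0 reads in prospermatogonia, and Mir708 was at -7.71 and -5.34, the latter outside its counting interval. Mir28, Mir151 and the sum stayed within theirs. Shares of the reads on features with a miRNA name stayed within the intervals of the shares given. The features at least 2-fold higher and lower numbered 20 and 164. They were 45 and 74 with the median ratio (37.8% of calls higher, against 10.9%), 41 and 81 with all miRNA reads (33.6%), and 5 and 91 with a level of 10 RPM required in each library. With all features above 0 reads they were 40 and 230 (14.8%). Depth limits Mir708 and Mir582 in prospermatogonia, where 3 reads are 1.05 RPM.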

Other observations

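Among the 56 other intronic features, the ratio was highest for Mir676 in Eda, with 31 reads in mESCs and 477 in prospermatogonia and a log2 ratio of 1.26, the 1 feature at least 2-fold higher. It was followed by Mir423 in Nsrp1 with 330 and 3242 reads (0.62), Mir10b in Hoxd3 with 250 and 1922 (0.27), Mir5105 in Cdk8 with 39 and 299 (0.26) and Mir877 in Abcf1 with 8 and 60 (0.22). These 5 were chosen by their ratios and are given as values, with no replicate check.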
